A study of Mus musculus with 12 samples.

Results

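Livers of freely fed mice injected with an adenovirus expressing Cre recombinase (Adeno-Cre) were compared with livers of freely fed mice injected with one carrying green fluorescent protein instead (Adeno-GFP). The samples were chosen by their titles, 3 arrays in each of the 2 groups, which is 6 of the 12 arrays of the series; the other 6 came from mice fasted for 24 h after the same injections. Members of the comparison were the 22180 genes that a probe set named alone, of which 331 changed. All mice were male, aged 2 months, of strain C57Bl/6N, and carried floxed p53 (the allele Trp53tm1Brn) in every group, so the controls held the floxed gene too. Each mouse received about 1700000000 infectious units in 250 µl of saline through the tail vein, at equal titers, and the fed or fasted condition followed 3 days later. Cre removes the floxed stretch only in cells that the virus enters, and the promoter that drives Cre is not given in the sources used here. Both fed groups had received adenovirus and no group without virus was analysed here. The cargo of the virus differed between the groups as well as p53, and the 2 differences cannot be told apart.

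The transcription factor p53 halts division of damaged cells, in part by raising Cdkn1a, an inhibitor of cyclin-dependent kinases, and it also acts on hepatocyte metabolism. Genes of DNA replication and mitosis are almost silent in the resting adult liver and are switched on together when hepatocytes re-enter the cell cycle. Interferon-stimulated genes form a separate programme: foreign nucleic acid is sensed, interferons are secreted, their receptors signal to the nucleus, and neighbouring cells then raise antiviral proteins, GTPases and chemokines. Hepatocytes also carry most of the body's amino acid breakdown, whose enzymes are divided between zones along the liver lobule.

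Levels are the deposited log2 expression values, so a difference of 1 is a 2-fold change. The medians of the 6 fed arrays lay between 6.26 and 6.30. Arrays of the Adeno-Cre fed group correlated at 0.993 with each other, as did those of the Adeno-GFP fed group, and arrays of different groups at 0.989 to 0.992. Hepatocyte genes were bright: Alb (albumin) read 13.26 to 13.33 and Ttr (transthyretin) 13.50 to 13.55 over the 6 arrays, with overlapping groups. The hepatocyte list as a whole was not level: of 29 secreted and identity genes 23 were below 0 after Adeno-Cre, with a median of -0.11. Without overlap 18 were lower, against 11.5% of all genes, and 1 was called lower, against 0.415%. The array means of the list were 10.53 to 10.60 against 10.65 to 10.70 in the controls. No probe set names Trp53 alone, and the gene was not analysed here, so the injections could not be checked on the deleted gene. The labels number the arrays without saying whether each is a separate mouse. Each p-value thus speaks only of the spread among these samples, which may be technical, and the small number of arrays limits the precision. That spread was estimated over all 12 arrays, so the fasted arrays enter the p-values of the fed comparison too. Whole liver was measured, so a lower level in fewer cells of a type and less RNA per cell cannot be told apart. A level under 6.26, the lowest array median, is not shown to be above background, and the size of a difference against such a level is uncertain.

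At an adjusted p under 0.05 by limma, 331 of the 22180 genes (1.49%) differed between the fed groups, 239 higher (1.08%) and 92 lower (0.415%) after Adeno-Cre. The rises were the larger changes: 96 called genes were at least 2-fold higher and 2 at least 2-fold lower, with median log2 differences of 0.89 among the called rises and -0.52 among the called falls. Over all genes the median difference was -0.02. Of the 239 that rose, 40 stood on lists of interferon genes and 82 on lists of cell division genes, and 12 of the 92 that fell stood on lists of amino acid breakdown. In all 331, the 3 Adeno-Cre arrays did not overlap the 3 Adeno-GFP arrays; among all genes tested 8.4% were higher and 11.5% lower without overlap. At an unadjusted p under 0.05 stood 2742 genes (12.4%), the share to set beside the unadjusted counts of lists given here. The number of calls depended on single arrays: leaving out Adeno-GFP fed replicate 3 gave 31, and the same for replicate 1 of that group gave 42. Without Adeno-Cre fed replicate 1 there were 114 calls, and 151 and 83 when replicates 2 and 3 of that group were left out in turn. The calls of 26 genes were kept without each of the 12 arrays in turn.

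**Figure D1:**
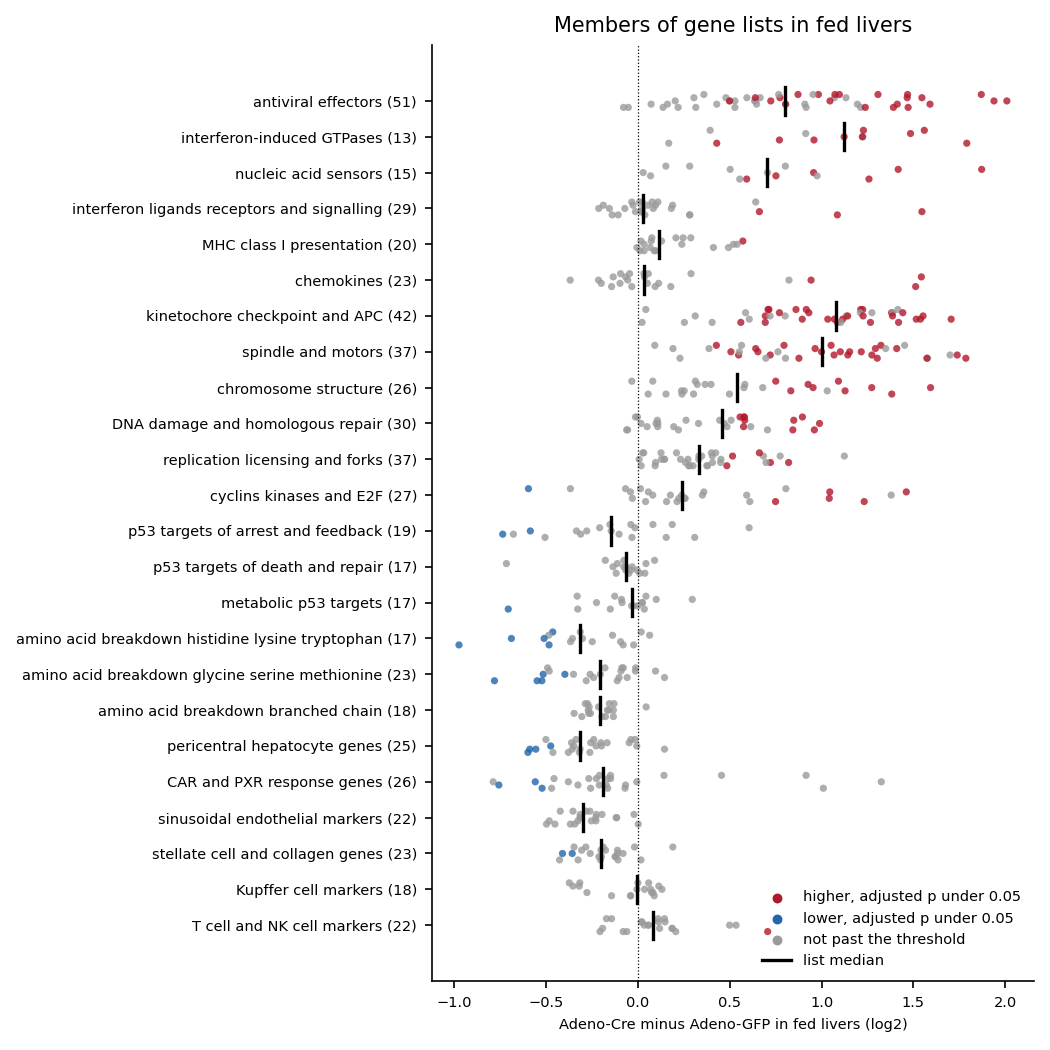
Log2 difference between Adeno-Cre and Adeno-GFP in fed livers for each measured member of 24 gene lists (the number of members in brackets); red points were higher and blue points lower at an adjusted p under 0.05, grey points did not pass, and black bars mark list medians. Antiviral effectors, interferon-induced GTPases, kinetochore and spindle genes lie mostly to the right of 0, and amino acid breakdown and pericentral genes mostly to the left.

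Interferon-stimulated genes rose as a group in fed livers. The lists for interferon signalling, nucleic acid sensing, antiviral effectors, GTPases and antigen presentation held 136 measured members. Of these 40 rose, against 1.08% of all genes, and 0 fell, with a median log2 difference of 0.46. Without overlap 78 were higher, against 8.4% of all genes. By list, 22 of 51 antiviral effectors rose (median 0.80), 9 of 13 interferon-induced GTPases (median 1.12) and 6 of 15 nucleic acid sensors (median 0.71). Among ligands, receptors and signalling genes 3 of 29 rose (median 0.03), and 1 of 20 genes of MHC class I presentation (median 0.11).

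The promoters of the 4 largest rises on these lists that held an interferon response element core are shown first, since many of these genes shared the letters. The core was searched on both strands as GAAA, any 2 bases and GAAA again, in windows from 250 bases before to 50 after each start in RefSeq (GRCm38.p6). Of the 40 genes that rose, 27 had a promoter in that table and 17 of them (63.0%) held the core, against 3.9% of the 16990 tested genes with a promoter. Stretches of 80 bases, all before the start, are written 5′ to 3′ on the gene's strand, with each match in capitals; matches that overlap run together.
Ifit1, chr19:34640764-34640843, plus strand: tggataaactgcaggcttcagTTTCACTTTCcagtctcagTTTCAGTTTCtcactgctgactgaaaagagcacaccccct
Oas1g, chr5:120887614-120887693, minus strand: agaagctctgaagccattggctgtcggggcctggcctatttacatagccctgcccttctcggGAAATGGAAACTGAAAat
Isg15, chr4:156200845-156200924, minus strand: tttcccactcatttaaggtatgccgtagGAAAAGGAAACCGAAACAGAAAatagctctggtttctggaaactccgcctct
Gbp3, chr3:142559964-142560043, plus strand: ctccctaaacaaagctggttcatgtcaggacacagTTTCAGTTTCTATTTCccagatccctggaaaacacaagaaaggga
The stretch of Isg15 held 3 matches and each of the other three held 2. The gamma-activated site, TTCNNNGAA, which reads the same on both strands, was found in 6 of the 27 (22.2%) against 9.2% of the tested genes. Over all 105 measured members of these lists with a promoter, called or not, 21.0% held this site and 37.1% the core. Matches of different letter strings may share bases, and a match describes the sequence only.

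Ifit1, which binds foreign RNA (probe set 17358832), read 10.96, 9.85 and 9.51 in Adeno-Cre replicates 1, 2 and 3 against 7.86, 8.31 and 8.12 in Adeno-GFP replicates 1, 2 and 3. Its log2 difference of 2.01 (SE 0.33, limma adjusted p = 0.0157) was the largest rise after that of the predicted gene Gm12250 (2.14). Replicate 1 of the Adeno-Cre group stood more than 1 log2 unit above the other 2, and the lowest Adeno-Cre value was above the highest Adeno-GFP value. Isg15, a ubiquitin-like protein attached to viral and host proteins, read 10.13, 8.65 and 9.00 against 7.49, 7.50 and 7.19 and rose by 1.87 (SE 0.33, adjusted p = 0.0192). The same Adeno-Cre replicate was the highest for this gene. Oas1g, of the oligoadenylate synthetases that start RNA decay, read 9.15, 8.93 and 8.64 against 6.49, 7.67 and 6.75 and rose by 1.94 (SE 0.28, adjusted p = 0.0116); here Adeno-GFP replicate 2 stood above the other controls. Rsad2 (viperin, an antiviral enzyme) rose by 1.47, Oasl2 by 1.47, Mx2 by 1.47 and Bst2 (tetherin, which holds budding virus at the cell surface) by 0.87. Mx1 read 8.25, 6.54 and 6.75 against 5.98, 5.26 and 5.53. Its rise of 1.59 (limma adjusted p = 0.0441) was measured against a level under the array medians. Ifit3 read 10.02, 8.51 and 8.72 against 8.11, 8.34 and 8.08 without overlap, but its difference of 0.91 did not pass (adjusted p = 0.18), and Ifit2 (0.95, adjusted p = 0.0618) and Cmpk2 (1.20, adjusted p = 0.0598) also missed the threshold. Without overlap, 45 of the 51 antiviral effectors were higher.

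Interferon-induced GTPases rose as a family. Igtp read 11.66, 11.34 and 11.26 in Adeno-Cre livers against 9.61, 10.15 and 10.05 in the controls and rose by 1.48 (SE 0.17, limma adjusted p = 0.00537). Irgm2 read 11.88, 11.51 and 11.46 against 10.08, 10.58 and 10.50, a difference of 1.23 (SE 0.15, adjusted p = 0.00706). Both were bright on every array, and in both the lowest Adeno-Cre value was clear of the highest control. Of the guanylate-binding proteins, Gbp10 read 11.42, 10.95 and 10.42 against 8.77, 9.56 and 9.10 (1.79, adjusted p = 0.00706), Gbp3 rose by 1.56, Gbp7 by 1.12, Gbp9 by 0.96 and Gbp4 by 0.77. Irgm1 rose by 1.22 and Iigp1 by 0.43. These families hold near-identical members, so the signal of one copy against another on array probes is uncertain.

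Sensors of foreign nucleic acid rose with the effectors. Zbp1, which detects Z-form nucleic acid, read 10.44, 9.46 and 9.70 against 7.60, 8.25 and 8.14 and rose by 1.87 (SE 0.29, limma adjusted p = 0.0135). Eif2ak2, the kinase PKR that double-stranded RNA activates, read 10.34, 9.88 and 9.94 against 8.92, 9.24 and 9.11 and rose by 0.96 (SE 0.15, adjusted p = 0.0128). For both genes the groups were separate and Adeno-Cre replicate 1 was the highest. The RIG-I-like helicases Dhx58 (1.26) and Ddx58 (0.75), the helicase Ddx60 (1.42) and Adar (0.59), which edits double-stranded RNA, also rose, whereas Ifih1 had a difference of 0.50 that did not pass (adjusted p = 0.177). Neither gene of the DNA sensing pair passed: Cgas read 4.63 to 5.34, under the array medians on all 6 arrays. Its difference was 0.28 (limma adjusted p = 0.376), and Sting1 had a difference of -0.19 (adjusted p = 0.566).

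Signalling genes that rose are themselves known to be induced by interferon. Usp18, which removes Isg15 from proteins and dampens the receptor, read 10.50, 9.83 and 9.74 against 8.28, 8.78 and 8.38 and rose by 1.55 (SE 0.25, limma adjusted p = 0.0157). Irf7, a transcription factor that amplifies interferon production, rose by 1.09 (adjusted p = 0.0208) and Stat2 by 0.66 (adjusted p = 0.0284), while Irf9 had a difference of 0.64 that did not pass (adjusted p = 0.0857). The interferons did not pass: Ifnb1 read 3.86, 4.09 and 4.04 against 4.02, 3.54 and 3.86, Ifng 5.60 to 5.76 against 5.68 to 5.96, both under the array medians, and Ifna4 8.40 to 8.54 against 8.30 to 8.66, with overlapping groups in each. The receptor gene Ifnar1 had a difference of 0.01.

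Chemokines rose in part, 3 of 23, against 1.08% of all genes. Cxcl10, which draws activated T cells, read 10.79, 9.87 and 9.79 against 8.45, 8.65 and 8.72 and rose by 1.54 (SE 0.23, limma adjusted p = 0.0116). The monocyte attractants Ccl2 and Ccl12 rose by 0.94 (adjusted p = 0.0176) and 1.51 (adjusted p = 0.00226); Ccl12 read 6.85, 6.25 and 6.36 against 4.91, 4.96 and 5.05, so the controls were under the array medians. Cxcl9 had a difference of 0.82 (adjusted p = 0.075). Of 20 genes of MHC class I presentation 1 rose, Nlrc5, the activator of class I genes (0.57, adjusted p = 0.0213), with Tap1 at 0.54 (adjusted p = 0.0635) and Psmb9 at 0.49 (adjusted p = 0.108), and of 10 class II genes 0 passed by limma, 0 of them at an unadjusted p under 0.05.

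Within the groups the interferon genes shared an order of arrays. Over all 136 members, called or not, Adeno-Cre replicate 1 was the highest Adeno-Cre array for 106 (77.9%), against 34.0% of all genes tested, and Adeno-GFP replicate 2 the highest Adeno-GFP array for 82 (60.3%), against 32.9%. Mean levels over the members were 8.93, 8.55 and 8.54 in Adeno-Cre replicates 1, 2 and 3 and 8.05, 8.21 and 8.11 in the Adeno-GFP replicates. Each Adeno-Cre mean thus exceeded each Adeno-GFP mean. Leaving out Adeno-Cre fed replicate 1, 2 or 3 gave 17, 33 or 18 calls on these lists, and leaving out Adeno-GFP fed replicate 1, 2 or 3 gave 5, 30 or 4. Igtp, Irgm2, Gbp10, Rtp4 and the chemokine gene Ccl12 kept their calls without each array in turn, whereas Ifit1, Oas1g, Zbp1, Usp18, Eif2ak2 and Cxcl10 lost theirs without either of Adeno-GFP fed replicates 1 and 3 (adjusted p up to 0.0731), Isg15 and Dhx58 also without Adeno-Cre fed replicate 3, and Irf7 also without Adeno-Cre fed replicates 1 or 3. The calls of Stat2 and Nlrc5 each ended without any of 5 fed arrays, those of Adar and Ddx60 without any of the 6, and that of Mx1 without any of 10 of the 12 arrays. Of the 40 interferon genes 4 kept their calls without each fed array: Igtp, Irgm2, Gbp10 and Rtp4. In a fit of the 6 fed arrays alone the calls of Ifit1, Isg15 and Mx1, among others, ended.

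**Figure D2:**
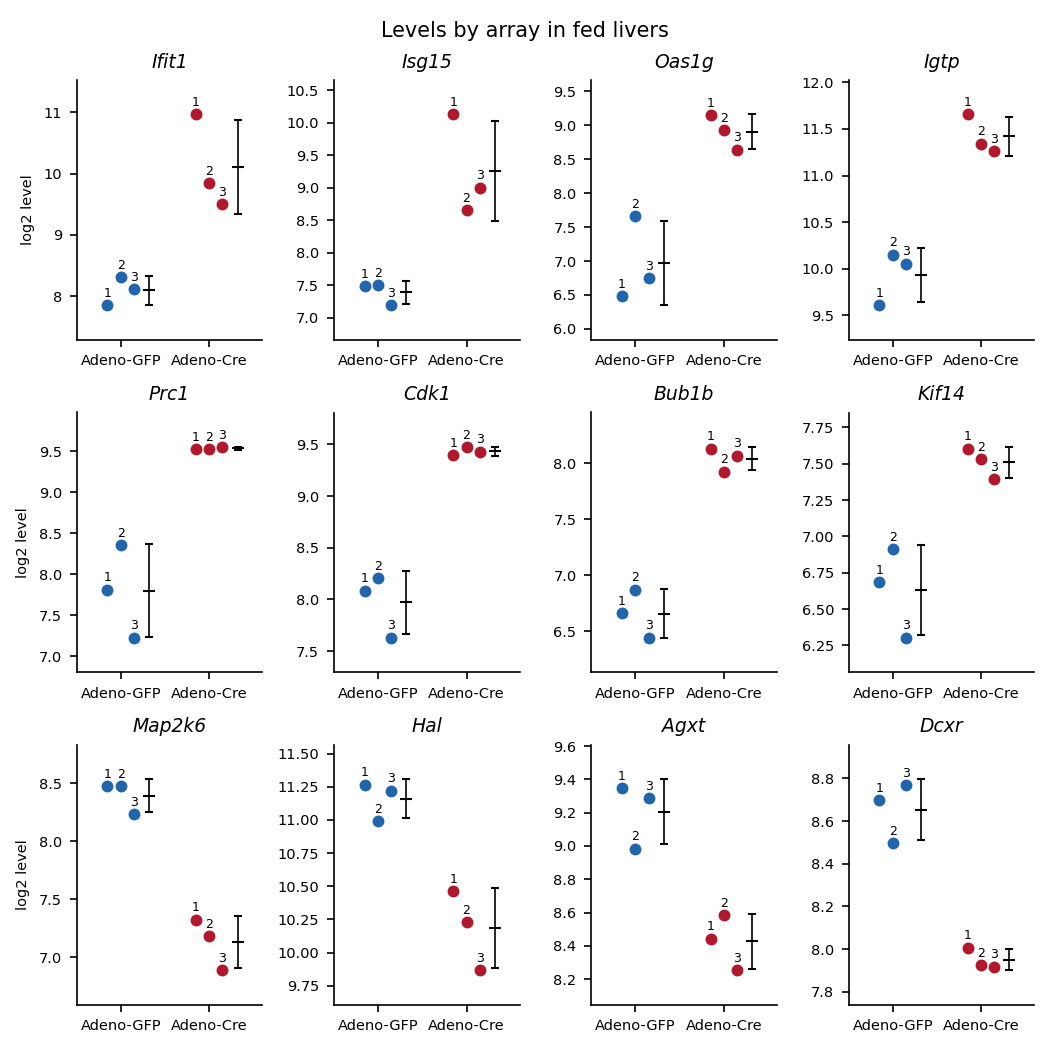
Deposited log2 level of 12 genes on each of the 6 fed arrays, with replicate numbers above the points and the group mean ± SD (n = 3 arrays) beside them. Axes do not start at 0. Adeno-Cre and Adeno-GFP values do not overlap for any of the 12 genes, and Adeno-Cre replicate 1 is the highest for the interferon genes of the top row.

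Infiltrating immune cells were looked at beside these rises by their markers. Of 22 T cell and NK cell markers 1 rose, Gzma (granzyme A; 0.71, limma adjusted p = 0.0307), a call that ended without any of 5 fed arrays. Mean levels over the list were 6.13 to 6.23 in the Adeno-Cre arrays and 6.03 to 6.08 in the Adeno-GFP arrays, and 16 of the 22 were under the array medians. Its defining genes Cd3e (5.75 to 6.11) and Cd8a (5.93 to 6.45) lay close to or under the array medians on all 6 arrays. Gzmb had a difference of 0.54 (limma adjusted p = 0.151). Of 18 Kupffer cell markers 0 passed limma's adjusted threshold and 2 had an unadjusted p under 0.05, with a median of 0.00, and Adgre1 and Clec4f had differences of -0.04 and 0.00. Of 20 monocyte and neutrophil markers 0 passed and 4 had an unadjusted p under 0.05; the list median was -0.02 with 12 of 20 below 0, and the 4 were all above 0, among them Ly6c2 (0.81) and Fcgr4 (0.75). S100a8 (4.15 to 4.47) and Ly6g (3.46 to 4.48) were under the array medians. The part of such cells in the interferon values was not tested.

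Cell division genes formed the larger block of rises. Of 226 measured members of 8 lists, 82 rose, against 1.08% of all genes, and 1 fell, with a median log2 difference of 0.51. Without overlap 165 were higher, against 8.4% of all genes. Mitotic machinery led: 27 of 42 kinetochore, checkpoint and anaphase genes rose (median 1.08) and 24 of 37 spindle and motor genes (median 1.00). Fewer genes of the earlier steps passed, with 5 of 37 for replication licensing and forks (median 0.33), 1 of 19 for nucleotide synthesis (median 0.13) and 5 of 27 cyclins, kinases and E2F factors (median 0.24). All 37 replication genes were still above 0, with 26 higher without overlap and 21 at an unadjusted p under 0.05 by limma. DNA repair and chromosome structure lay between, with 10 of 30 (median 0.46) and 9 of 26 (median 0.54).

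Promoters of dividing-cell genes often carry the CHR letters TTTGAA, where MuvB complexes bind, and CCAAT boxes, where NF-Y binds. Of the 82 genes that rose, 66 had a RefSeq promoter; 37 (56.1%) held TTTGAA on either strand against 17.8% of tested genes, and 45 (68.2%) held CCAAT against 41.6%. Both were present in 27. Over all 187 measured members of these lists with a promoter, called or not, 39.0% held TTTGAA and 65.2% held CCAAT. The CCAAT share of the genes that rose was thus near that of the lists as a whole. For each gene a window of 80 bases before the start was set by the TTTGAA match nearest the start. Genes with both strings only in another such window were passed over, so larger rises may be missing. Of the rest, the 4 largest rises with both strings in the window are shown, with the matches in capitals (GRCm38.p6, 5′ to 3′ on the gene's strand).
Prc1, chr7:80294396-80294475, plus strand: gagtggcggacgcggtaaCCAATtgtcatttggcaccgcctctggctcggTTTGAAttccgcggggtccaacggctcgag
Cdkn3, chr14:46760390-46760469, plus strand: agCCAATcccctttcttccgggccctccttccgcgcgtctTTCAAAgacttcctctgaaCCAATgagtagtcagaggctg
Cdk1, chr10:69352913-69352992, minus strand: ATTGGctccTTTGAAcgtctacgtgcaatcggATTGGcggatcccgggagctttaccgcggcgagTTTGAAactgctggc
Ube2c, chr2:164769849-164769928, plus strand: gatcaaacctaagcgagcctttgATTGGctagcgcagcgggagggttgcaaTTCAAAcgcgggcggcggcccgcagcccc
Cdk1 held 4 matches in its stretch, Cdkn3 3, and Prc1 and Ube2c 2 each. For the 27 interferon promoters above, the shares were 22.2% for TTTGAA and 37.0% for CCAAT.

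Prc1, which bundles microtubules between separating chromosomes (probe set 17479575), read 9.53, 9.53 and 9.55 after Adeno-Cre against 7.81, 8.36 and 7.23 after Adeno-GFP and rose by 1.74 (SE 0.32, limma adjusted p = 0.0225). The 3 Adeno-Cre values were almost equal while the controls spread over more than 1 log2 unit, replicate 2 the highest and replicate 3 the lowest. Kif11, the motor that separates spindle poles, read 9.23, 9.09 and 9.15 against 7.70, 8.21 and 7.34 and rose by 1.41 (SE 0.21, adjusted p = 0.0122). Fam83d, of the spindle, read 7.76, 7.58 and 7.91 against 6.60, 6.97 and 6.68 and rose by 1.00 (SE 0.12, adjusted p = 0.00592). Shcbp1, a midbody protein, rose by 1.78 and the kinesins Kif20b, Kif4 and Kif14 by 1.57, 1.29 and 0.88.

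At the kinetochore, where chromosomes attach to the spindle, Knl1 read 9.47, 9.36 and 9.52 against 7.87, 8.29 and 7.07 and rose by 1.71 (SE 0.30, limma adjusted p = 0.0185). Bub1b, which holds anaphase until all chromosomes are attached, read 8.13, 7.92 and 8.07 against 6.66, 6.87 and 6.44 and rose by 1.38 (SE 0.18, adjusted p = 0.00706). Cenpi, of the inner kinetochore, read 7.91, 7.68 and 7.69 against 6.55, 6.70 and 6.38 and rose by 1.21 (SE 0.16, adjusted p = 0.00706). In each of these 3 genes the Adeno-GFP order was replicate 2, then 1, then 3, and no control reached an Adeno-Cre value. Other members that rose were Ska3 (1.55, from a control level of 5.60, under the array medians), Bub1 (1.54), Nuf2 (1.51), the mitotic kinases Ttk (1.44) and Aurka (1.27), and Ube2c (1.42), the ubiquitin-conjugating enzyme of anaphase.

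Cdk1, whose kinase activity starts mitosis, read 9.39, 9.48 and 9.43 against 8.08, 8.20 and 7.63 and rose by 1.46 (SE 0.22, limma adjusted p = 0.0116). Its partner Ccna2 (cyclin A2) rose by 1.23 and the mitotic transcription factor Foxm1, which read 7.17, 7.41 and 7.42 against 6.55, 6.81 and 6.39, by 0.75 (adjusted p = 0.0171). E2f8, an E2F factor of cells that become polyploid, rose by 1.04 and Cdc25c, the phosphatase that activates Cdk1, by 1.04. Ccnb2 (cyclin B2) read 10.06, 10.09 and 10.15 against 8.79, 9.32 and 8.05, and its difference of 1.38 did not pass (adjusted p = 0.0636). Mki67, the proliferation marker, read 9.82, 9.80 and 9.98 against 8.92, 9.11 and 8.48 (1.03, adjusted p = 0.0852). Cdk6, a kinase of the first gap phase, fell by 0.59 (8.03, 8.06 and 8.13 against 8.63, 8.71 and 8.67; adjusted p = 0.0345) and Ccnd1 (cyclin D1) read 7.77, 7.68 and 7.60 against 8.20, 8.02 and 7.93, a difference of -0.37 that missed the threshold (adjusted p = 0.0652).

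Replication genes that rose were Chaf1a (0.82), which loads histones behind the fork, the ligase Lig1 (0.72), the polymerase subunits Pole (0.66) and Pola1 (0.52), and Cdc45 (0.48) of the helicase. Of the 12 arrays, the call of Lig1 ended without any of 10 and that of Cdc45 without any of 9. For Pole and Pola1 there were 6 such arrays each, and for Chaf1a 5. Rrm2, of the enzyme that makes deoxyribonucleotides, rose by 1.06 (limma adjusted p = 0.0437). Other probe sets of Pole and Rrm2 gave 0.36 (adjusted p = 0.203) and 1.05 (adjusted p = 0.0599). Among genes of DNA repair, Brca1 read 7.996, 7.95 and 7.88 against 6.65, 7.31 and 6.98 and rose by 0.96 (adjusted p = 0.0221). Rad18, which directs bypass of damaged bases, rose by 0.84 (adjusted p = 0.00771), and the Fanconi genes Fancb, Fancd2 and Fanci by 0.99, 0.58 and 0.58, with mean control levels of 5.84 and 6.12 for the first pair, under the array medians. Top2a, the topoisomerase that untangles chromosomes, rose by 1.38, Esco2, which seals sister chromatids together, by 1.59, and the condensin subunits Smc2, Ncaph and Smc4 by 1.27, 1.09 and 0.83.

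The spread of these genes lay in the controls. Over the 82 that rose, the median range was 0.19 among Adeno-Cre arrays and 0.57 among Adeno-GFP arrays, against 0.20 and 0.21 over all genes tested; over all 226 members it was 0.19 and 0.34. Adeno-GFP replicate 2 was the highest control for 171 of the 226 members (75.7%) and replicate 3 the lowest for 153 (67.7%), against 32.9% and 33.0% of all genes. Mean levels over the 226 members were 8.11, 8.02 and 8.08 in the Adeno-Cre arrays and 7.47, 7.66 and 7.30 in the Adeno-GFP arrays. Leaving out Adeno-Cre fed replicate 1, 2 or 3 gave 26, 44 or 22 calls on these lists, and leaving out Adeno-GFP fed replicate 1, 2 or 3 gave 16, 87 or 9. Bub1b, Cenpi, Ska3, Zwilch, Spc25, Sgo1, Fam83d, Kif14 and Rad18 kept their calls without each array in turn. Cdk1 lost its call without Adeno-GFP fed replicate 3 (limma adjusted p = 0.0535), and Kif11 without that array or Adeno-GFP fed replicate 1. The calls of Knl1, E2f8 and Foxm1 each ended without any of 4 fed arrays. Prc1, Shcbp1, Ccna2, Brca1 and Rrm2 each lost theirs without any of 5 of the 6 fed arrays, all but Adeno-GFP fed replicate 2. Counting fasted arrays too, the call of Rrm2 ended without any of 9 of the 12 arrays.

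**Figure D3:**
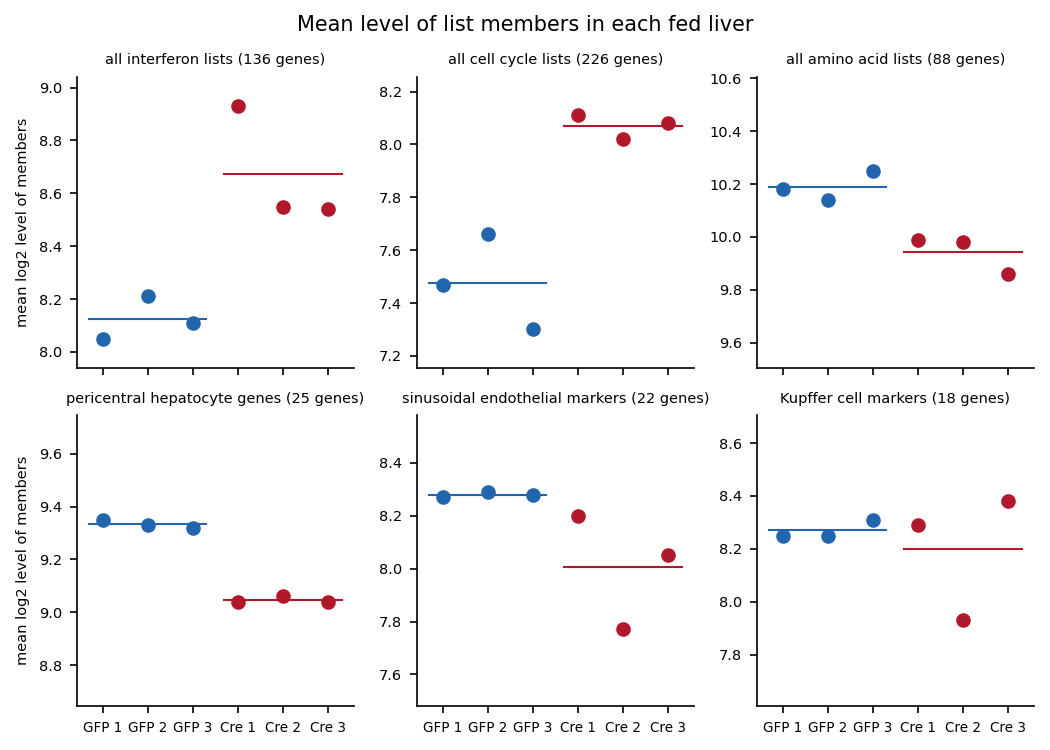
Mean log2 level of the measured members of 6 gene lists on each fed array. Lines are group means, each panel spans 1.1 log2 units and axes do not start at 0. Interferon means are highest in Adeno-Cre replicate 1 (8.93) and cell cycle means spread among the Adeno-GFP arrays (7.30 to 7.66). Endothelial and Kupffer cell means are lowest in Adeno-Cre replicate 2.

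Enzymes of amino acid breakdown were lower after Adeno-Cre. Of 88 measured members of 5 lists 12 fell, against 0.415% of all genes, and 0 rose, with a median log2 difference of -0.22. Without overlap 60 were lower, against 11.5% of all genes. The falls lay in histidine, lysine and tryptophan breakdown (5 of 17, median -0.31), in glycine, serine and methionine breakdown (5 of 23, median -0.20) and in transamination (2 of 23, median -0.18). Of 18 branched-chain genes 0 passed limma's adjusted threshold and 12 had an unadjusted p under 0.05, with a median of -0.20 and 14 lower without overlap. Mean levels over the 88 members were 9.99, 9.98 and 9.86 in Adeno-Cre replicates 1, 2 and 3 against 10.18, 10.14 and 10.25 in the Adeno-GFP replicates. Adeno-Cre replicate 3 was thus the lowest array, and every Adeno-Cre mean was below every control mean.

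Histidine breakdown fell along its length. Hal, histidine ammonia-lyase and the first enzyme, read 10.46, 10.23 and 9.87 against 11.27, 10.99 and 11.22 and fell by 0.97 (SE 0.16, limma adjusted p = 0.0171). The next enzymes, Uroc1, Amdhd1 and Ftcd, fell by 0.51 (adjusted p = 0.0476), 0.48 (adjusted p = 0.0273) and 0.46 (adjusted p = 0.0208); Ftcd read 9.31, 9.41 and 9.28 against 9.77, 9.74 and 9.88. All 4 had separate groups, and Adeno-Cre replicate 3 was the lowest in each. Agxt, the aminotransferase that clears glyoxylate, read 8.44, 8.58 and 8.25 against 9.35, 8.98 and 9.29 and fell by 0.78 (SE 0.15, adjusted p = 0.0273). In methionine metabolism Gnmt, which uses up methyl groups, fell by 0.55 (adjusted p = 0.0428), Bhmt2 by 0.52 (adjusted p = 0.0155) and Cbs, the entry to cysteine, by 0.51 (adjusted p = 0.0364). Gpt, alanine aminotransferase, read 8.82, 8.70 and 8.48 against 9.27, 9.16 and 9.42 and fell by 0.62 (adjusted p = 0.0171), and Prodh, of proline breakdown, by 0.54 (adjusted p = 0.0284). Tat, tyrosine aminotransferase, read 11.95, 12.22 and 11.03 against 12.03, 12.34 and 12.31 with overlapping groups (-0.50, adjusted p = 0.409). The count of 12 fell to 0 when Adeno-Cre fed replicate 3 was left out, or replicate 1 or 3 of the Adeno-GFP fed group, was 3 when Adeno-Cre fed replicate 1 was left out and 5 for replicate 2 of that group.

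Pericentral hepatocytes lie around the central vein and express a programme driven by Wnt signals. Of 25 genes of that zone 4 fell, against 0.415% of all genes, and 0 rose (median -0.31). Without overlap 17 were lower, against 11.5% of all genes. Gulo, the vitamin C enzyme, read 9.12, 9.43 and 9.03 against 9.72, 9.81 and 9.84 and fell by 0.60 (SE 0.11, limma adjusted p = 0.0273). Tbx3, a Wnt-dependent transcription factor, read 7.20, 6.81 and 7.08 against 7.52, 7.71 and 7.61 and fell by 0.59 (adjusted p = 0.0273). Rnf43, which removes Wnt receptors, fell by 0.55 (adjusted p = 0.0472) and the secreted protein gene Lect2 by 0.47 (adjusted p = 0.0317). Lgr5, the R-spondin receptor, had a difference of -0.50 (adjusted p = 0.061) and Axin2, a direct Wnt target, one of -0.01 (adjusted p = 0.966). Cyp2e1 read 12.92 to 12.94 against 12.95 to 12.98, near the top of the scale. Of 20 periportal genes 1 fell, Hal, with a list median of -0.22. The same omissions took the 4 pericentral calls to 0, leaving out Adeno-Cre fed replicate 1 took them to 1, and leaving out replicate 2 of either group took them to 2.

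Other hepatocyte lists held few calls. Of 24 genes of bile acid synthesis and transport 1 fell and 22 were below 0 (median -0.20). Without overlap 14 were lower, against 11.5% of all genes. Of 19 cholesterol synthesis genes 0 passed limma's adjusted threshold and 9 had an unadjusted p under 0.05, with 18 below 0 and 11 lower without overlap (median -0.23). Map2k6, a kinase that activates p38, read 7.32, 7.18 and 6.89 against 8.47, 8.47 and 8.23 and fell by 1.26 (SE 0.16, limma adjusted p = 0.00706), the largest fall of all, kept without each array in turn. Nr1i3, the xenobiotic receptor CAR, read 10.12, 9.92 and 9.85 against 10.77, 10.74 and 10.63 and fell by 0.76 (limma adjusted p = 0.0328). On the list of 26 CAR and PXR response genes 3 fell, against 0.415% of all genes, among them Cyp2c54 (-0.56) and the exporter Abcc3 (-0.52). Without overlap 10 of the 26 were lower and 4 higher, against 11.5% and 8.4% of all genes. The list median was -0.19 in fed and 0.04 in fasted livers. Ppp1r3c, which targets phosphatase to glycogen, fell by 0.99 (adjusted p = 0.0459), with Adeno-GFP replicate 1 at 10.27 and the other 2 controls at 9.23 and 9.24. Srebf1, the transcription factor of fat synthesis, read 7.46, 7.46 and 7.45 against 7.81, 7.98 and 8.16 and fell by 0.53 (adjusted p = 0.0273), whereas its target Fasn had a difference of -0.59 that did not pass (adjusted p = 0.0918). Akr1c6 fell by 0.65 and the glucose-6-phosphate transporter gene Slc37a4 by 0.47 (adjusted p = 0.033). Pck1 and G6pc, the gluconeogenic enzymes, had overlapping groups (-0.27 and -0.40), as did Cyp7a1, the first enzyme of bile acid synthesis (-0.36). Pgd, of the pentose phosphate pathway, read 8.70, 8.79 and 8.59 against 8.05, 8.03 and 8.16 and rose by 0.62 (adjusted p = 0.0148), and the serine synthesis gene Psat1 by 0.50 (adjusted p = 0.0344). Saa3, an acute phase gene, rose by 1.62 (8.64, 9.60 and 8.90 against 7.03, 7.71 and 7.52; adjusted p = 0.0273), the only call among 23 acute phase and metallothionein genes. The calls of Nr1i3, Abcc3 and Psat1 ended without any 1 of the 6 fed arrays, and those of Srebf1 and Slc37a4 without any of 5 of them. Counting fasted arrays too, the call of Ppp1r3c ended without any of 11 of the 12 arrays and that of Cyp2c54 without any of 10. For Saa3 and Akr1c6 there were 4 such arrays, and the call of Pgd ended without Adeno-GFP fed replicate 1 or 3.

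Sinusoidal endothelial markers gave 0 calls among 22 at limma's adjusted threshold and 11 at an unadjusted p under 0.05. Their median was -0.30, and 13 were lower without overlap, against 11.5% of all genes. Stab2, a scavenger receptor of these cells, read 8.77, 8.30 and 8.66 against 9.02, 8.92 and 9.05 (-0.42, limma adjusted p = 0.0923). The list averaged 8.27 to 8.29 in the Adeno-GFP arrays and 7.77 to 8.20 in the Adeno-Cre arrays, lowest in Adeno-Cre replicate 2. Kupffer cell markers were lowest on the same array, with a list mean of 7.93 there and 8.25 to 8.38 in the other 5. Of 23 stellate cell and collagen genes 2 fell, against 0.415% of all genes, and the list median was -0.20. They were Rgs5 (9.84, 9.67 and 9.84 against 10.21, 10.13 and 10.22, a difference of -0.41, limma adjusted p = 0.0303) and Bmp5 (-0.36, adjusted p = 0.0387). Another probe set of Rgs5 gave -0.35 (adjusted p = 0.124). Without Adeno-Cre fed replicate 2 both of these calls ended, as they did without several other fed arrays.

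Known p53 targets were examined since Trp53 was not. Dcxr, a carbonyl reductase, read 8.01, 7.93 and 7.92 against 8.70, 8.49 and 8.77 and fell by 0.70 (SE 0.08, limma adjusted p = 0.00592). Ccng1 (cyclin G1) read 10.58, 10.43 and 10.63 against 11.12, 11.23 and 11.04 and fell by 0.58 (adjusted p = 0.0135), and Plk2 (8.42, 8.37 and 8.34 against 9.21, 9.18 and 8.94) by 0.73 (adjusted p = 0.0273). In these 3 genes all Adeno-Cre arrays lay below all controls. Cdkn1a read 7.15, 7.21 and 7.19 against 7.68, 8.28 and 7.62, separate groups whose difference of -0.68 did not pass (adjusted p = 0.445), and Mdm2, which degrades p53, 8.53, 8.52 and 8.46 against 8.74, 8.92 and 8.70 (-0.28, adjusted p = 0.171). Plk3, a kinase of the stress response, lay the other way, at 8.92, 8.30 and 8.45 against 7.69, 8.05 and 8.11 without overlap (0.61, adjusted p = 0.216). Over 19 targets of arrest and feedback 2 fell, against 0.415% of all genes, and 0 rose (median -0.14). Without overlap 7 of them were lower and 5 higher, against 11.5% and 8.4% of all genes. Over 17 targets of death and repair 0 passed by limma, with 2 at an unadjusted p under 0.05 (median -0.06). Over 17 metabolic targets 1 fell (median -0.03). Dcxr kept its call without each array, Ccng1 lost it without Adeno-GFP fed replicate 1 (adjusted p = 0.0604) and Plk2 without any 1 of the 6 fed arrays.

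The fed differences were then set beside those of the mice fasted for 24 h, which came from other arrays. There 609 genes passed (2.75%), 502 higher (2.26%) and 107 lower (0.482%). Of the 239 genes that rose in fed livers 153 also rose in fasted livers, 230 were above 0 there, against 41.6% of all genes, and 0 fell. Of the 92 that fell 18 also fell in fasted livers and 86 were below 0 there.

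Cell division genes rose in both diets. Of the 82 that rose in fed livers 79 also rose in fasted livers, where the median difference of the 82 was 1.40 against 1.04 in fed livers. Cdk1 had differences of 1.46 in fed and 2.26 in fasted livers, and Shcbp1 of 1.78 and 3.39. Of the 40 interferon genes that rose in fed livers 1, Igtp, also rose in fasted livers (0.81, limma adjusted p = 0.0219), and the median difference of the 40 was 1.17 in fed and 0.18 in fasted livers. Ifit1 read 8.52, 8.21 and 7.86 in the Adeno-Cre fasted livers against 8.70, 8.01 and 8.82 in the Adeno-GFP fasted livers, an overlap with a difference of -0.31 (adjusted p = 0.674), where the fed difference was 2.01. Outside these lists Cxcl10 rose in both diets (1.54 and 1.11), as did Saa3 (1.62 and 1.99). Since these genes were chosen by their fed call, a larger fed value is in part fixed by the choice. Of the amino acid enzymes Hal fell in fasted livers too, by 0.69 (adjusted p = 0.0449), and Agxt had a difference of -0.57 there (adjusted p = 0.0674). Of the p53 targets, Ccng1 and Dcxr fell in fasted livers too, by 0.50 (adjusted p = 0.00986) and 0.55 (adjusted p = 0.00352), and Plk2 had a difference of -0.12 there (adjusted p = 0.711).

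The difference between the diets was tested itself, as the fed minus the fasted Adeno-Cre effect. By limma 1 of the 22180 genes passed (0.00451%) and 1676 had an unadjusted p under 0.05. The 1 gene was Slc44a3, a choline transporter-like protein, which did not pass in fed livers (7.97, 7.96 and 7.84 against 8.15, 8.18 and 7.95; -0.17, adjusted p = 0.469) and rose by 0.89 in fasted livers. Of the 40 interferon genes and the 82 cell division genes 0 passed this test, so a difference between diets was not shown for them; for Ifit1 the fed effect was larger by 2.32 (adjusted p = 0.404) and for Igtp by 0.67 (adjusted p = 0.608).

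**Figure D4:**
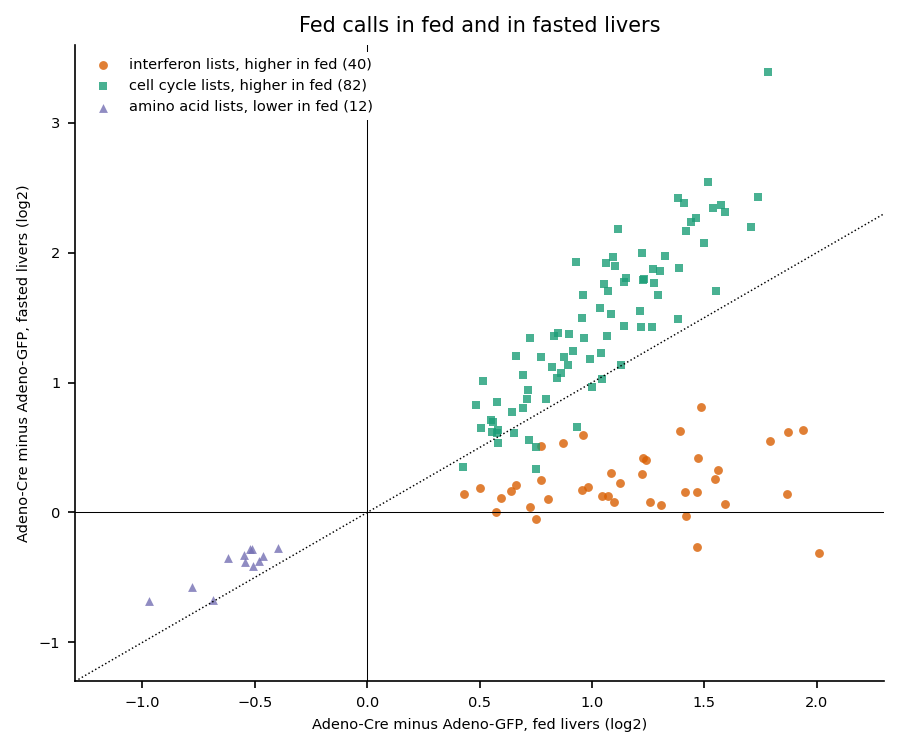
Log2 difference between Adeno-Cre and Adeno-GFP in fed livers (horizontal) and in fasted livers (vertical) for the members called in fed livers on the interferon, cell cycle and amino acid lists; the dotted line marks equal differences. Cell cycle genes lie mostly above the line and interferon genes below it; the genes were chosen by their fed difference, and for 0 of them did the 2 differences differ at an adjusted p under 0.05.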

How the data were processed

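RNA of whole mouse liver (200 ng, RIN above 7) was hybridised to 12 Affymetrix arrays, 3 in each of 4 groups. The deposited table holds log2 expression values made with RMA, per the submitters' processing notes. The genome build behind the probe annotation is not given in the sources used here. Since RMA sets all arrays to nearly one distribution, a shift of most genes together would not be seen. Of 41345 probe sets 23521 named 1 gene, 1814 named several and were left out, and 16010 were unnamed here. The gene IDs of 23328 of the named probe sets were found in RefSeq. For the 1082 of 22180 genes with several probe sets, the one brightest on average was kept.

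Differences were fitted with limma 3.58.1 in R 4.3.3 on the deposited log2 values of all 12 arrays, as a mean per group with moderated variance, and p-values were adjusted over all genes by Benjamini-Hochberg, with calls under 0.05. The model was tested on simulated data. Tables and figures used Python 3.11.15, pandas 2.3.3, numpy 2.4.6 and matplotlib 3.10.9. Promoters of 300 bases came from RefSeq (GRCm38.p6, 32851 entries), matched by gene.

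Members and gene lists were chosen with earlier results of these data known. Genes were named by rule: up to 15 largest rises and 15 largest falls among called genes without overlap, predicted genes left out, from each list holding a call up to 5 members by smallest p, up to 10 genes called between diets, and a set of known pathway genes; other genes named on the lists, and all those under the closing observations, were named after their values were seen. Leaving out each array, a replicate block, dim probe sets, normalisation, variance prior, probe set choice, array weights and a fit of the 6 fed arrays were tried, and the block within the 6 fed arrays was added after seeing the data. Whether replicate numbers pair the samples is not given in the labels. Over all genes, deviations of same-numbered fed arrays correlated at -0.027, -0.036 and 0.006, and those of other-numbered ones at -0.058 to 0.085. Such a correlation cannot show a pairing that acts on few genes, so pairing was not settled.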

Additional observations from a re-analysis of the deposited data

Results flagged for a closer look

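The gene Slc44a3 stood out because its Adeno-Cre effect differed between fed and fasted livers. The fed minus the fasted effect was -1.07 on the log2 scale (limma adjusted p = 0.0481), the 1 call among the genes tested for this difference, and for 10 of the 12 arrays the fit without that array called 0 genes. In fasted livers Slc44a3 read 8.27, 8.40 and 8.49 after Adeno-Cre against 7.51, 7.41 and 7.57 after Adeno-GFP, without overlap.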

How the results depend on the processing

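No named gene called in the main fit, or in the fit set beside it, changed sign between them. Sign changes of uncalled genes and of list medians were not counted. Over the 12 fits that left out 1 array each, calls in fed livers ranged from 31 to 362 (higher 25 to 270, lower 5 to 97), and calls between diets from 0 to 1. Interferon calls ranged from 4 to 42 (antiviral effectors 1 to 23, GTPases 3 to 9, sensors 0 to 7). Cell cycle calls ranged from 9 to 97: kinetochore 6 to 34, spindle 2 to 28, chromosome structure 0 to 12, repair 1 to 11, replication 0 to 7, cyclins and kinases 0 to 7. Amino acid calls ranged from 0 to 11 (histidine, lysine and tryptophan 0 to 5, glycine, serine and methionine 0 to 4) and pericentral calls from 0 to 5. A fit of the 6 fed arrays alone, which has fewer samples, gave 145 calls, 121 higher and 24 lower, and 124 of the 331 were kept in it. Of the 101 named genes called in the main fit 48 lost their calls there. By list this fit gave interferon 16 (effectors 8, GTPases 5, sensors 2), cell cycle 52 (replication 1, cyclins 3, repair 4), amino acid 3 (histidine, lysine and tryptophan 1, glycine, serine and methionine 2) and pericentral 0. With dim probe sets left out, where fewer genes are tested, or with a trended and robust variance prior, calls rose to 554 and 539, falls to 216 and 220, amino acid calls to 26 and 28, histidine, lysine and tryptophan calls to 10 in both, pericentral calls to 8 in both and replication calls to 10 and 9. Array weights gave 9 replication calls, and quantile normalisation gave 3 glycine, serine and methionine calls; the cause was not tested. The call between diets was lost (0) with separate probe sets, with quantiles and with the block.

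With the replicate number as a block there were 234 calls, of which 214 were among the 331, with 58 lower, 0 for replication, 3 for histidine, lysine and tryptophan and 2 pericentral; the other lists kept counts within 1.5 times. With that block in a fit of the 6 fed arrays, added after seeing the data, all these counts were 0. What same-numbered arrays share beyond the number is not given in the labels. The 3 arrays a group and unknown probe background limit small and dim differences.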

Other observations

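Of the 239 genes that rose, 110 stood on no list, and they included further genes of the same kinds, chosen here after their values were seen. Rnf213, a large ubiquitin ligase that marks intracellular bacteria, read 11.03, 10.38 and 10.23 after Adeno-Cre against 9.04, 9.51 and 9.27 after Adeno-GFP and rose by 1.27 (SE 0.20, limma adjusted p = 0.0135). BC023105 read 10.49, 10.28 and 9.85 against 8.13, 8.43 and 8.48 and rose by 1.86 (SE 0.18, adjusted p = 0.00226), with a call kept without each array in turn. Trim30d, Slfn4, Mlkl (the effector of necroptosis) and Ubd (a ubiquitin-like protein induced by interferon) rose by 1.16, 1.14, 0.89 and 0.88. Dbf4, the partner of the kinase that fires replication origins, rose by 1.12 (adjusted p = 0.00706), Cip2a by 1.63, and the centriole duplication genes Stil and Sass6 by 0.94 and 0.83. The call of Dbf4 was kept without each of the 12 arrays as well; those of the other genes named here were kept in 2 (Mlkl) to 10 (Rnf213) of the 12 fits without 1 array.

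Of the 92 genes that fell, 62 stood on no list. Among them were Clec14a and Myct1, both known from endothelial cells, which fell by 0.61 and 0.69, and Sucnr1, the succinate receptor, which fell by 0.68. Masp1 and Mbl2, of the lectin pathway of complement, fell by 0.57 and 0.42, and the apolipoprotein gene Apoa5 by 0.45. Gamt, the last enzyme of creatine synthesis, fell by 0.56, and Egln3, an oxygen-sensing hydroxylase, by 0.63. These genes were picked after their values were seen, and their calls were kept in 3 (Apoa5 and Egln3) to 9 (Sucnr1) of the 12 fits without 1 array; that of Myct1 was lost without any of the 6 fed arrays.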
